A study of Mus musculus with 8 samples.

Results

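Presynaptic vesicle cycle genes encode the proteins that load synaptic vesicles with transmitter, dock and fuse them at the active zone when calcium enters, and take the membrane back for reuse. The group described here was a list of 37 mouse genes chosen by name: vesicle membrane proteins, synapsins, SNARE proteins and their regulators, calcium sensors, active zone scaffolds, Rab3 GTPases, endocytic proteins, neurexins and beta-synuclein. All 37 were found by gene symbol among the 19505 genes of the array table, each through 1 probe set, and all 37 were among the 14628 genes bright enough to be tested. No measured value entered the rule that chose them, but earlier results of these data were known when the list was made.

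Hippocampi were taken at 18 to 20 months of age, after the Morris water maze, a spatial memory task. All 8 animals were labelled B6.Cg-Tg(APPswe)E1-2Dbo/J and so shared the transgene for mutant amyloid precursor protein. Memory was labelled impaired in 4 animals and intact in 4, each with 1 array, and animals without the transgene were not analysed here. The sources used here do not give the promoter of the transgene, the sex of the mice or the score that set impaired apart from intact memory. Values are log2 expression from RMA, a method that combines the probes of a gene after background correction and normalization. Every difference is impaired minus intact in log2 units.

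Fusion of a vesicle is driven by SNARE proteins: synaptobrevin (Vamp1, Vamp2) on the vesicle pairs with syntaxin (Stx1a) and Snap25 on the plasma membrane, complexins hold the assembled machine, and synaptotagmins trigger it when calcium binds. Bassoon, piccolo, RIM and ELKS proteins build the active zone where this happens, Munc13 proteins make vesicles ready to fuse, and dynamin, amphiphysin, endophilin and synaptojanin retrieve the membrane. In the hippocampus most of this machinery sits in glutamatergic terminals that carry Slc17a7, and loss of presynaptic proteins is a known feature of Alzheimer's disease.

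Messenger RNA of the vesicle cycle differed little between impaired and intact mice. None of the 37 genes passed limma at an adjusted p of 0.05, where 0% of all genes tested passed, and none of the 37 had an unadjusted p under 0.05, against 4.68% of all genes. For none of them did the 4 impaired values lie wholly above or below the 4 intact values, against 2.58% of all genes. The largest differences were -0.19 for Rims1 (1.14-fold lower in the impaired mice) and 0.23 for Doc2a (1.17-fold higher), and for 30 of the 37 genes the difference was smaller than its standard error. The share of all genes with so small a difference is not given here, so that count does not set the 37 apart. Adjusted p ran from 0.961 to 0.999.

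**Figure D1:**
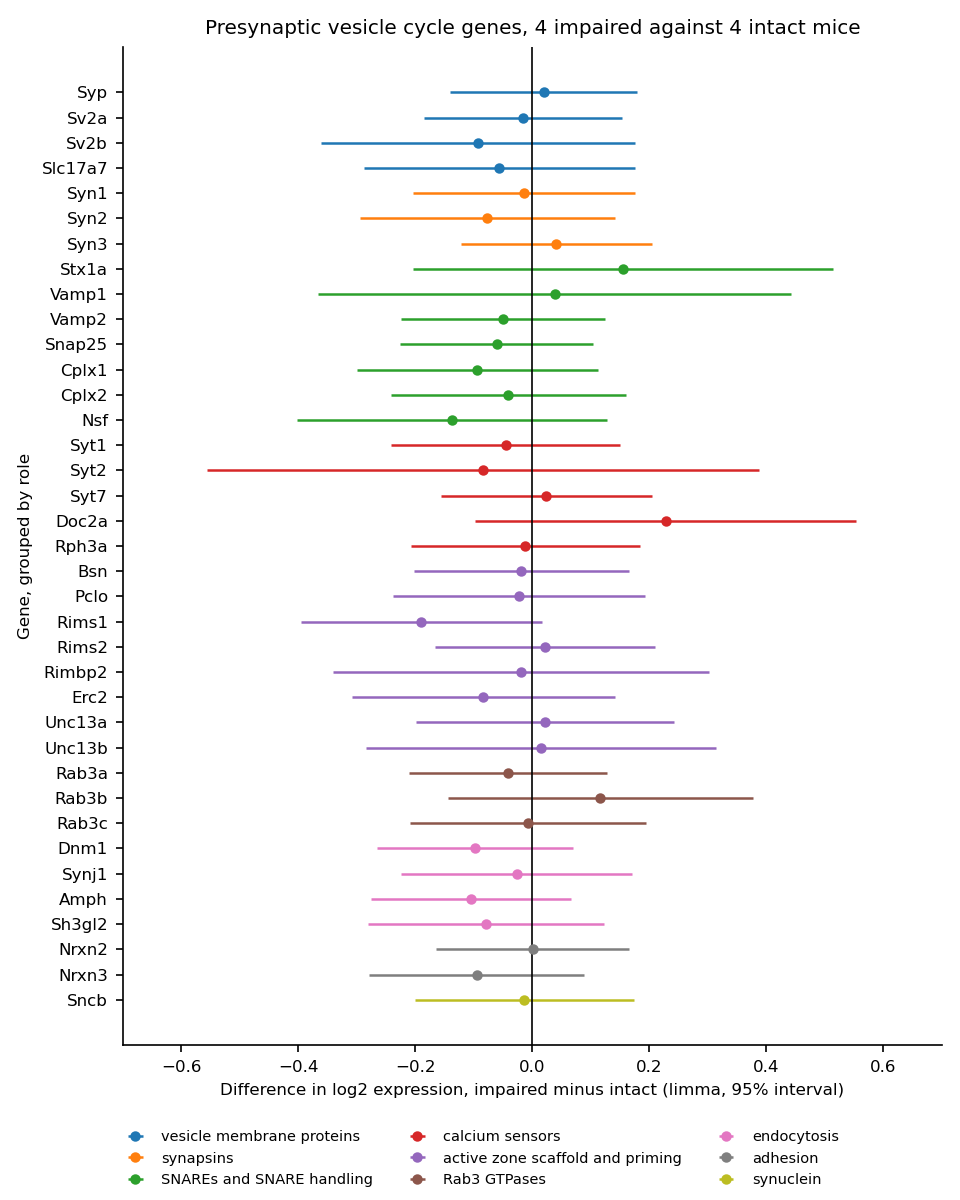
Difference in log2 expression between 4 impaired and 4 intact mice for each of the 37 genes (point), with its 95% interval from limma (bar) and colours for the gene's role. All 37 intervals include 0, and the widest belong to Syt2, Vamp1, Stx1a and Doc2a.

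These intervals set how large a difference the arrays could have missed. The median standard error was 0.091 for the 37 genes and 0.105 for all genes tested. The 95% interval lay within 0.25 of 0, or 1.19-fold, for 19 of the 37 genes, against 22.6% of all genes tested. Within 0.5 of 0, or 1.41-fold, lay the intervals of 34 of the 37, against 88.6% of all genes tested, and those of Syt2, Doc2a and Stx1a reached farther. The 37 genes were brighter than most, with 35 above 7.92, the 95th percentile of intron control probe sets, against 46.0% of all genes tested. Genes of like brightness were not compared, so the narrower intervals are not particular to these genes as far as was tested. In whole-tissue RNA fewer neurons of a kind and less RNA per neuron cannot be told apart, and the number of terminals was not measured. Of the 37 genes, 26 had a lower mean in the impaired mice (70.3%), against 52.9% of all genes, with a median difference of -0.023 against -0.0083. That count was 17 of 37 after a further quantile normalization, against 49.7% of all genes, and 17 of 37 with thalamus and choroid plexus scores as covariates, against 53.4% of all genes. The count was 26 with a replicate block and with an intensity trend and robust prior, against 52.9% of all genes. It was 19 with the thalamus score alone, against 53.8%, 24 with array weights, against 52.1%, and 28 with the plexus score alone, against 52.8%. Median centring and the general neuron score each gave 27, against 54.4% and 53.4%.

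Because Syn1 is a textbook target of the repressor REST and Vamp1, Syt2, Stx1a and Slc17a7 are set beside thalamus markers further on, the 250 bases before their annotated starts are shown from RefSeq (assembly GRCm38.p6), each 5′ to 3′ on the gene's strand. Capitals mark matches on either strand to the left part of the REST element RE1 (TTCAGCACC), the cyclic AMP response element (TGACGTCA) and the GC box (GGGCGG), with adjoining or overlapping matches run together. The letters of the 3 motifs differ, and only GC boxes overlapped, with each other, in the Slc17a7 window.
Syn1, chrX:20920919-20921168, minus strand: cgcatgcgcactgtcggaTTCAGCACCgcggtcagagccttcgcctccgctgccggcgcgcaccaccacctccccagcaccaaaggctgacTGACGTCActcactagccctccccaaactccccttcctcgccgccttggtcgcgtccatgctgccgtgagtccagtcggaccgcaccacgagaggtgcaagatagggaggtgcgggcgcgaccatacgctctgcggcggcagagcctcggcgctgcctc
Vamp1, chr6:125215331-125215580, plus strand: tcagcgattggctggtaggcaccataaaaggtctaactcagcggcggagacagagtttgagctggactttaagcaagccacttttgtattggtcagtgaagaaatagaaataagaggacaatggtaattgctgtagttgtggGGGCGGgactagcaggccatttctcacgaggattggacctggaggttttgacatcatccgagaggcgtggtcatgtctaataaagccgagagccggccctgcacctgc
Syt2, chr1:134646362-134646611, plus strand: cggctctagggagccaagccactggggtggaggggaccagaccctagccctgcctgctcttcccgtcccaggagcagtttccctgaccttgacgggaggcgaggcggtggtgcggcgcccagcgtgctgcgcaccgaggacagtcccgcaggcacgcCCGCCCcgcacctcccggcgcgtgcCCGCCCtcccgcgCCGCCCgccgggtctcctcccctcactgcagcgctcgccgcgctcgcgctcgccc
Syt2, chr1:134709050-134709299, plus strand: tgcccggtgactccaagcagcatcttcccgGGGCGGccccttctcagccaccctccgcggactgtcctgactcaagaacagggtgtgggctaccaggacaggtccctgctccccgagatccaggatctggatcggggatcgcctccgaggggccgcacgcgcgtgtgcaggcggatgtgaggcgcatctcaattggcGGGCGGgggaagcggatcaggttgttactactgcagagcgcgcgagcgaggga
Stx1a, chr5:135023232-135023481, plus strand: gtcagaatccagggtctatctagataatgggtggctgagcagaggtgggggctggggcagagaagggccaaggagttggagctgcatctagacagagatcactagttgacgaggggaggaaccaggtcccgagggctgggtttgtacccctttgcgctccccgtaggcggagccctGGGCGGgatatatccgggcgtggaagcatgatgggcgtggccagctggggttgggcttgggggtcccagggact
Slc17a7, chr7:45163671-45163920, plus strand: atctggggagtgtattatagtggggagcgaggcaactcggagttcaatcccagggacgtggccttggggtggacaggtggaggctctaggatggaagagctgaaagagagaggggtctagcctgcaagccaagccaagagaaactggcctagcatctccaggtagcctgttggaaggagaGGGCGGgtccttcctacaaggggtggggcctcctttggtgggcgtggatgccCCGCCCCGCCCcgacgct

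Such windows were found for 30 of the 37 genes, 42 windows in all. The REST letters were in 1 of the 42, that of Syn1, starting 232 bases before the start, and in 0.301% of all 32851 windows of the same length. The cyclic AMP element was in the windows of Syn1 and Sh3gl2, 4.76% of the 42, against 1.55% of all windows. GC boxes were in 21 of the 42 windows, belonging to 20 genes, against 32.7% of all windows. Vamp1 and Syt2, which were high in the same mice, differed in base composition: G and C made up 50.4% of the Vamp1 window and 76% and 66.4% of the Syt2 windows, against a median of 52.4% over all windows. These matches are letters in a window and not measured binding.

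Among vesicle membrane proteins, Slc17a7, the transporter VGLUT1 that fills vesicles with glutamate in most hippocampal terminals, stood at 12.40, 12.57, 12.28 and 12.61 in impaired mice 1 to 4 and at 12.54, 12.42, 12.72 and 12.39 in intact mice 1 to 4. The groups overlapped, with the lowest value in impaired mouse 3 and the highest in intact mouse 3, and the difference was -0.056 (standard error 0.105; limma, adjusted p = 0.987). Synaptophysin (Syp), an abundant vesicle protein and a common histological marker of terminals, had the narrowest range of all 37 genes, from 12.93 to 13.07. Its difference was 0.020, with a 95% interval from -0.14 to 0.18. The glycoproteins Sv2a and Sv2b, which support release competence, differed by -0.016 and -0.092, and Sv2b varied more between mice, from 10.22 in impaired mouse 3 to 10.80 in intact mouse 1.

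The synapsins tether vesicles in the reserve pool. Syn1 was 11.93, 12.11, 11.88 and 12.03 in the impaired mice and 12.01, 11.94, 12.13 and 11.93 in the intact mice. Its groups covered nearly the same range, and the difference was -0.014 (95% interval -0.20 to 0.18). Syn2 differed by -0.077 and Syn3 by 0.041, with standard errors of 0.099 and 0.074. For Syn1 and Syn2, impaired mouse 3 was the lowest and intact mouse 3 the highest of the 8 mice.

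Of the SNARE genes, Snap25 was 13.30, 13.43, 13.37 and 13.47 in the impaired mice and 13.47, 13.48, 13.47 and 13.40 in the intact mice. Impaired mice 1 and 3 were the lowest and the other values overlapped, and the difference was -0.061 (standard error 0.075; limma, adjusted p = 0.964). Stx1a, the plasma membrane syntaxin, was 8.47, 8.48, 7.99 and 8.37 in the impaired mice and 8.39, 7.83, 8.49 and 7.98 in the intact mice. Its low values were those of impaired mouse 3, intact mouse 2 and intact mouse 4, drawn from both groups, and the difference was 0.16 (standard error 0.16). Vamp2, the main synaptobrevin of the forebrain, differed by -0.050, while Vamp1, its counterpart in fast-firing and subcortical neurons, differed by 0.038.

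Cplx1, a complexin that clamps and promotes fusion, was 10.95, 11.17, 11.00 and 11.21 in the impaired mice and 11.17, 11.32, 11.03 and 11.18 in the intact mice. Values of impaired mice 1 and 3 were the lowest, with intact mouse 3 close to them, and the difference was -0.094 (standard error 0.094). Its relative Cplx2 differed by -0.041 (standard error 0.091). Nsf, the ATPase that takes spent SNARE complexes apart, was 11.40, 11.60, 11.38 and 11.86 in the impaired mice and 11.88, 11.72, 11.63 and 11.56 in the intact mice. Impaired mouse 4 lay among the highest values, and the difference was -0.14 (standard error 0.12; limma, adjusted p = 0.961).

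Doc2a, a calcium sensor of spontaneous and asynchronous release, had the largest difference of the 37 genes. It was 7.48, 7.28, 7.51 and 6.95 in the impaired mice and 7.09, 6.74, 7.19 and 7.28 in the intact mice. The groups overlapped: impaired mouse 4 lay below all intact values but that of intact mouse 2, and intact mouse 4 lay beside impaired mouse 2. The difference was 0.23 (standard error 0.15; limma, adjusted p = 0.961), with 0.35 without impaired mouse 4 and 0.12 without intact mouse 2. With a mean of 7.19, Doc2a lay below 7.92, the 95th percentile of the 5222 intron probe sets that serve as a negative control, as did Unc13b, and the other 35 genes lay above it, against 46.0% of all genes tested.

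Syt1, the fast calcium sensor of synchronous release in forebrain neurons, was 12.88, 13.19, 13.01 and 13.19 in the impaired mice and 13.09, 13.13, 13.13 and 13.10 in the intact mice. The impaired mice spread more, at 13.07 ± 0.15 (SD, n = 4), than the intact mice, at 13.11 ± 0.019 (SD, n = 4), and the difference was -0.046 (standard error 0.089). Syt7, the slow sensor of facilitation and vesicle replenishment, differed by 0.024 and Rph3a, a Rab3 effector with calcium-binding domains, by -0.012. Syt2, the fast sensor of hindbrain and fast-spiking neurons, had the widest range of all 37 genes, 0.98, from 7.53 to 8.52.

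**Figure D2:**
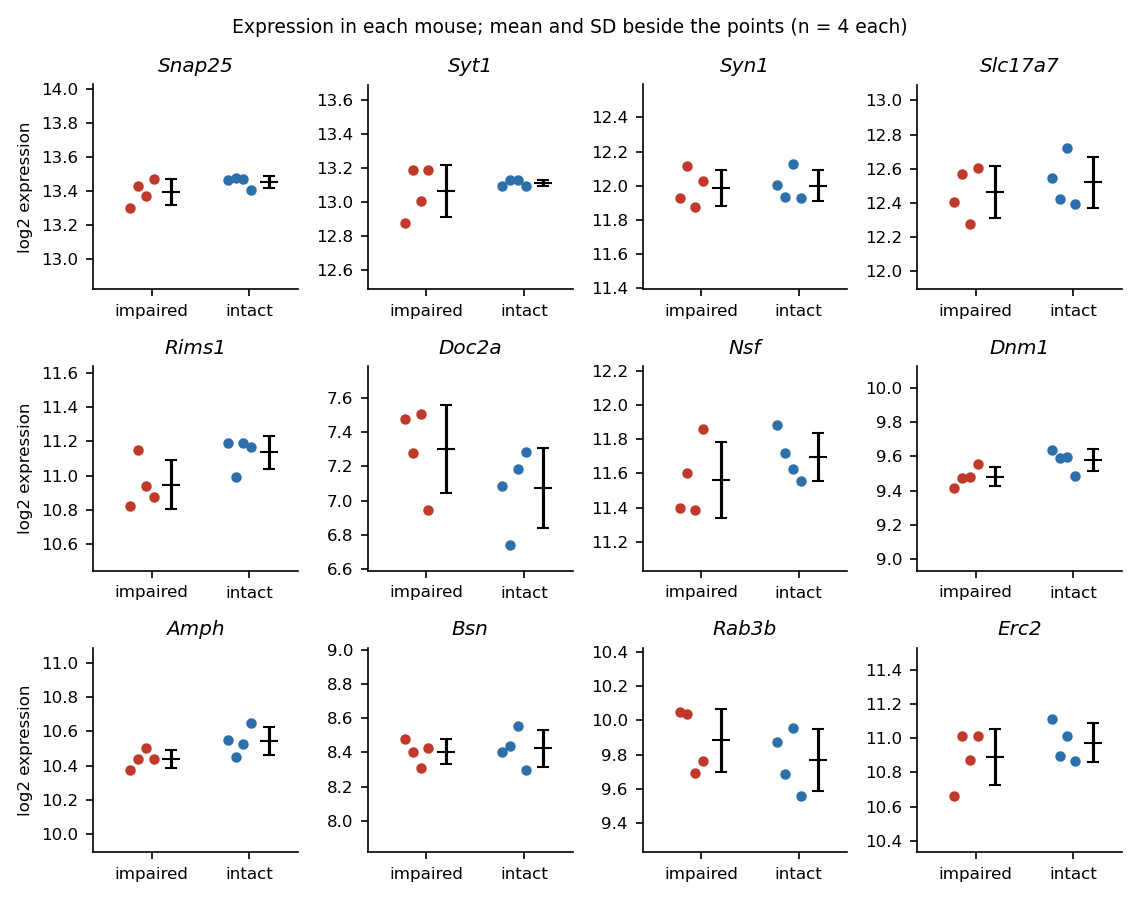
Log2 expression of 12 of the genes in each impaired (red) and intact (blue) mouse, with the group mean and SD (n = 4) beside the points; each panel spans 1.2 log2 units around the gene's mean. Red and blue points overlap in every panel, most closely for Syn1, Slc17a7 and Bsn.

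In the active zone, Rims1, the RIM scaffold that brings calcium channels and vesicles together, had the smallest p of the 37 genes. It was 10.82, 11.15, 10.94 and 10.87 in the impaired mice and 11.19, 10.99, 11.19 and 11.17 in the intact mice. Impaired mouse 2 and intact mouse 2 crossed over, and the other 3 mice of each group stood apart. The group means were 10.95 ± 0.14 (SD, n = 4) and 11.14 ± 0.096 (SD, n = 4), and the difference of -0.19 had a 95% interval from -0.40 to 0.017 (limma, unadjusted p = 0.0687, adjusted p = 0.961). Over all alternatives its difference ran from -0.26 to -0.15. Its relative Rims2 differed by 0.022 (standard error 0.085).

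Erc2, an ELKS scaffold, was 10.66, 11.01, 10.87 and 11.01 in the impaired mice and 11.12, 10.90, 11.02 and 10.87 in the intact mice. Apart from a low value in impaired mouse 1 the groups lay together, and the difference was -0.083 (standard error 0.102). Bsn, which encodes bassoon, was 8.48, 8.40, 8.31 and 8.43 in the impaired mice and 8.40, 8.44, 8.56 and 8.30 in the intact mice, with a difference of -0.019 (95% interval -0.20 to 0.17). Pclo, for piccolo, differed by -0.023, Rimbp2, which links RIM to calcium channels, by -0.019, and the Munc13 genes Unc13a and Unc13b by 0.022 and 0.015. None of these 4 exceeded its standard error.

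Of the Rab3 GTPases, which mark vesicles for docking, Rab3a and Rab3c differed by -0.041 and -0.0077. Rab3b was 10.05, 10.04, 9.69 and 9.76 in the impaired mice and 9.87, 9.69, 9.96 and 9.56 in the intact mice. Its values were high in impaired mice 1 and 2 and the groups overlapped otherwise, with a difference of 0.12 (standard error 0.12).

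The 4 endocytic genes had lower means in the impaired mice, as did 52.9% of all genes, and none passed the test. Amph, for amphiphysin, was 10.37, 10.44, 10.51 and 10.44 in the impaired mice and 10.55, 10.45, 10.52 and 10.65 in the intact mice, a difference of -0.11 (standard error 0.077; limma, adjusted p = 0.961). The crossing values were those of impaired mouse 3 and intact mouse 2. Dnm1, the dynamin of nerve terminals, was 9.42, 9.47, 9.48 and 9.55 in the impaired mice and 9.64, 9.59, 9.60 and 9.48 in the intact mice, a difference of -0.098 (standard error 0.075). Here the crossing values were those of impaired mouse 4 and intact mouse 4. Sh3gl2, for endophilin A1, was 9.70, 9.72, 9.64 and 9.97 in the impaired mice and 9.86, 9.86, 9.89 and 9.74 in the intact mice, with impaired mouse 4 the highest of all 8, and differed by -0.080 (standard error 0.091). Synj1, the lipid phosphatase that uncoats vesicles, differed by -0.026, and by 0.026 after a further quantile normalization.

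Among the neurexins, adhesion proteins that span the cleft, Nrxn3 was 10.25, 10.32, 10.29 and 10.37 in the impaired mice and 10.30, 10.44, 10.32 and 10.55 in the intact mice. The overlap was wide apart from intact mice 2 and 4, and the difference was -0.095 (standard error 0.083). Nrxn2 differed by 0.00044, with a 95% interval from -0.16 to 0.17. Sncb, for beta-synuclein, a terminal protein of uncertain function in release, differed by -0.014.

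**Figure D3:**
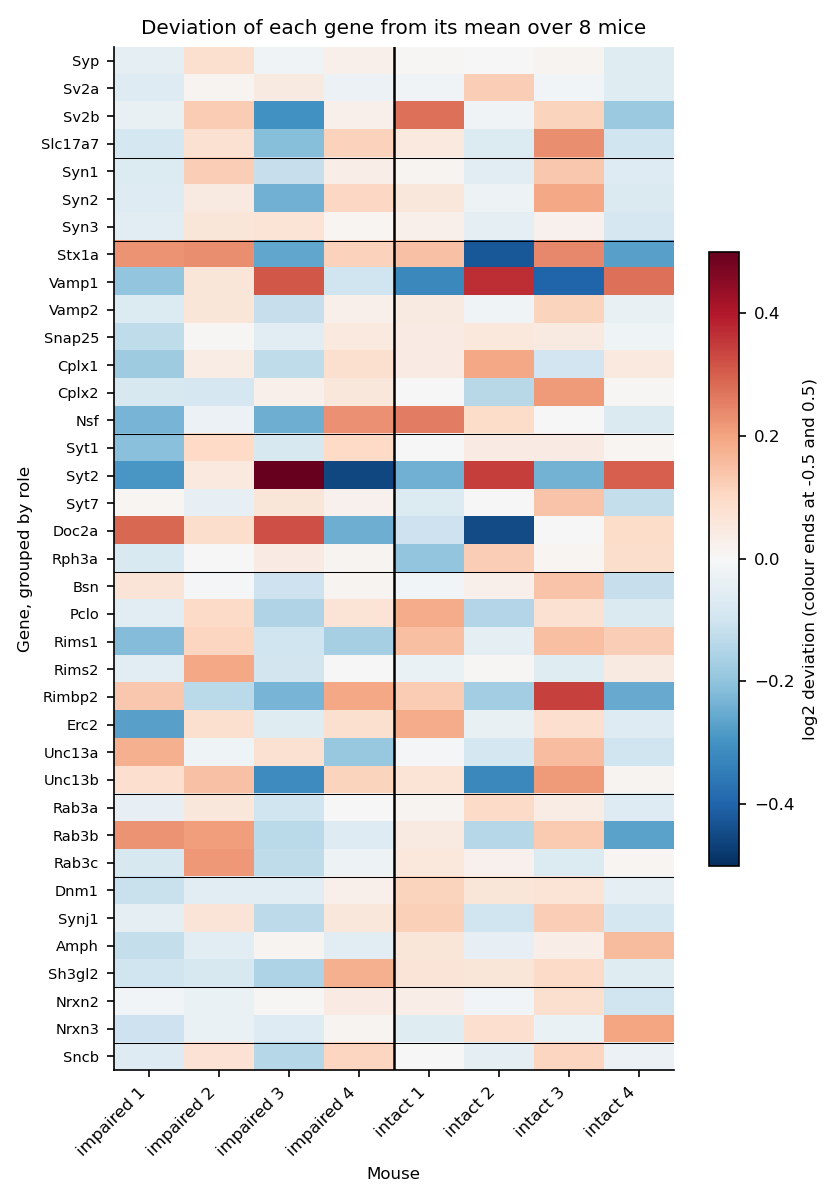
Deviation of each of the 37 genes (rows, grouped by role) from its own mean in each mouse (columns; the line separates impaired from intact), in log2 units with colours that end at -0.5 and 0.5. Vamp1 and Syt2 are red where Rimbp2 and Stx1a are mostly blue, in mice of both groups.

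The mean deviation of the 37 genes was highest in intact mouse 3, at 0.066, and lowest in impaired mouse 3, at -0.061, with impaired mouse 1 at -0.053. Intact mouse 3 held the highest value of the 8 for 14 of the 37 genes, and impaired mouse 3 the lowest for 13 and impaired mouse 1 for 9. The same counts over all genes tested are not given here, so these do not set the 37 genes apart. The median range over the 8 mice was 0.33 for these genes and 0.45 for all genes tested, without matching for brightness.

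Vamp1 and Syt2 were high in the same mice, which came from both memory groups. Vamp1 was 11.20, 11.46, 11.70 and 11.30 in the impaired mice and 11.07, 11.76, 11.00 and 11.67 in the intact mice. Syt2 was 7.70, 8.04, 8.52 and 7.53 in the impaired mice and 7.75, 8.33, 7.75 and 8.29 in the intact mice. For both genes impaired mice 2 and 3 and intact mice 2 and 4 held the 4 highest values. The Syt2 values of the remaining mice lay below the control percentile of 7.92. Rimbp2, singled out after its values were seen, was 9.28, 9.01, 8.92 and 9.34 in the impaired mice and 9.27, 8.97, 9.49 and 8.89 in the intact mice, with its 4 lowest values in those same mice.

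Those 4 mice, 2 from each group, were also the ones with the highest levels of thalamus markers. The thalamus borders the dissected hippocampus, and its relay neurons use the transporter Slc17a6 in place of Slc17a7. A score, the mean deviation of 13 thalamus markers from their means over all mice, was 0.385 to 0.432 in these 4 mice, -0.24 to -0.036 in impaired mice 1 and 4 and intact mouse 1, and -1.24 in intact mouse 3. Tcf7l2, a transcription factor of thalamic neurons, was 11.37, 11.98, 12.17 and 11.70 in the impaired mice and 11.10, 12.12, 9.66 and 12.30 in the intact mice. Slc17a6 was 8.58, 9.39, 9.27 and 8.91 in the impaired mice and 8.58, 9.49, 7.89 and 9.41 in the intact mice. The interneuron marker Pvalb was 8.94, 8.83, 8.95 and 8.37 in the impaired mice and 8.47, 8.99, 8.20 and 9.04 in the intact mice. A like score of 10 interneuron markers, Pvalb among them, was 0.12, 0.035, -0.16 and 0.026 in the impaired mice. In the intact mice it was -0.11, 0.10, -0.034 and 0.023. All 13 of the 13 markers had a higher mean in the impaired mice, and 0 of the 13 had an unadjusted p under 0.05 (limma). Scores were -0.15 to 0.42 in the impaired and -1.24 to 0.43 in the intact group. The low end of the intact group was intact mouse 3 alone, and the next lowest intact score was -0.24. Shox2, Synpo2, Gbx2 and Patj lay below the control percentile of 7.92. The part of thalamic or interneuron RNA in these values was not tested.

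**Figure D4:**
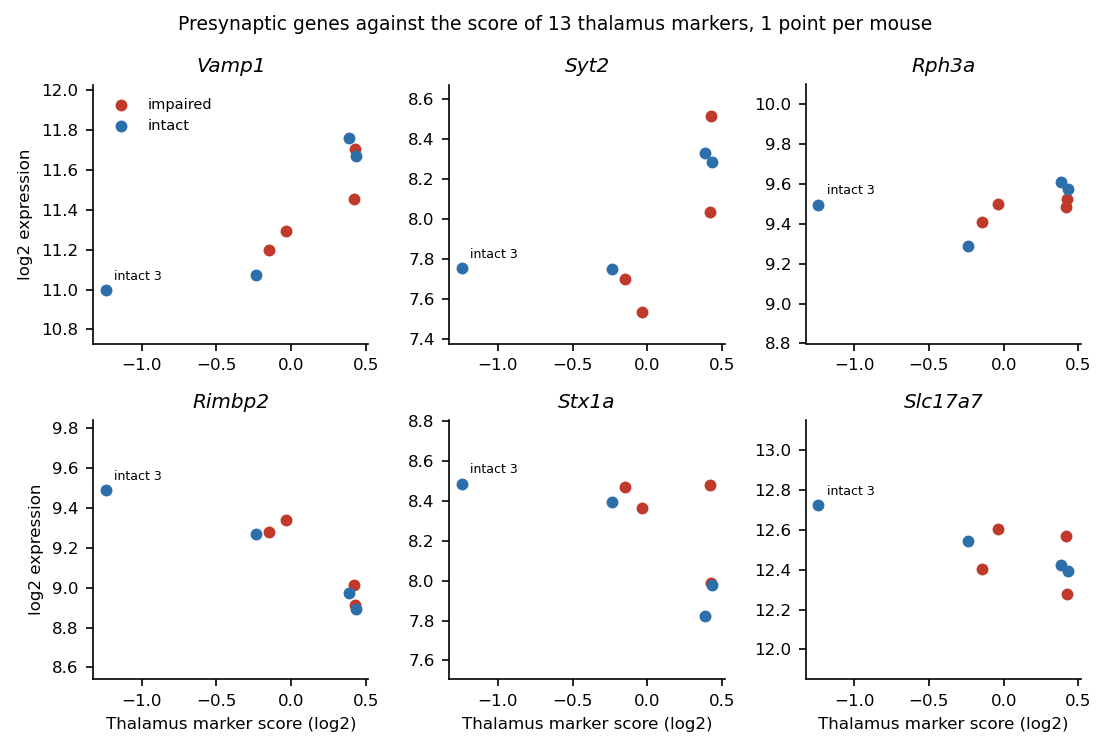
Log2 expression of 6 genes against the thalamus marker score (log2), 1 point per mouse, impaired in red and intact in blue, each panel spanning 1.3 log2 units. Vamp1 and Syt2 are highest and Rimbp2 lowest in the 4 mice with scores of 0.385 to 0.432, and intact mouse 3 stands alone at -1.24.

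To put a size on this, each gene was fitted on the thalamus score with memory group in the model. The slope, in log2 units per unit of score, was 0.48 for Vamp1 (standard error 0.11; limma, adjusted p = 0.118) and 0.46 for Syt2 (standard error 0.16; adjusted p = 0.313). It was -0.38 for Rimbp2 (standard error 0.083; adjusted p = 0.108) and -0.37 for Stx1a (standard error 0.12; adjusted p = 0.273). Slc17a7 had a slope of -0.18 (standard error 0.089; adjusted p = 0.522), and Snap25, Syp and Rab3a had slopes between -0.012 and -0.0078. None of the 37 genes passed the adjustment, against 0.376% of all genes tested, and 4 of 37 had an unadjusted p under 0.05, against 10.6% of all genes, so that the share was close to the background. Likewise 3 of 37 genes had the 4 high-score mice as their 4 highest or 4 lowest, against 5.13% of all genes.

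Without intact mouse 3 the slopes were larger, 0.82 for Vamp1, 1.04 for Syt2, -0.59 for Rimbp2 and -0.57 for Stx1a, with adjusted p of 0.324, 0.348, 0.417 and 0.678. In that fit 0 of all genes passed the adjustment, against 55 with all mice, and 1000 had an unadjusted p under 0.05, against 1557. The choroid plexus markers were low in impaired mouse 3 and intact mouse 3, with scores of -0.915 and -0.937, and 10 of the 13 plexus markers tested lay at or below the control percentile of 7.92. A score of 12 general neuron markers lay between -0.115 and 0.0704 over all 8 mice. With the thalamus score as a covariate, the memory difference of Stx1a was 0.28 (limma, unadjusted p = 0.0528), and with both the thalamus and the plexus scores that of Syt2 was -0.48 (unadjusted p = 0.00179, adjusted p = 0.999).

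Other genes of the vesicle cycle were examined in 9 lists by role, 111 genes tested of 123 listed. None passed the adjustment, and 4 had an unadjusted p under 0.05, against 4.68% of all genes. Lower means in the impaired mice were found for 57.7% of the 111, against 52.9% of all genes, with a median difference of -0.018. Without impaired mouse 1 none of the 111 had an unadjusted p under 0.05, and without impaired mouse 2 or intact mouse 3 there were 5. Ppfia4, a liprin scaffold, was 7.59, 7.06, 7.08 and 7.34 in the impaired mice and 7.09, 6.94, 6.92 and 6.86 in the intact mice, a difference of 0.32 (standard error 0.12; limma, adjusted p = 0.961). The remaining 3 had lower means in the impaired mice. Vamp4, a SNARE of endosomes and bulk retrieval, differed by -0.24 (standard error 0.10), Rab5a, the GTPase of early endosomes, by -0.24 (standard error 0.10) and Sh3gl3, an endophilin, by -0.33 (standard error 0.14), each with an adjusted p of 0.961. Groups overlapped for all 4. Both group means of Ppfia4 and of Sh3gl3 lay below the control percentile of 7.92.

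In the lists without such a gene, the smallest p belonged to Svop among other vesicle membrane proteins (difference -0.13), Atp6v1e1 among transporters and the proton pump (0.080), Syt11 among further calcium sensors (-0.13), Dnajc5 among synucleins and chaperones (-0.058) and Cbln4 among adhesion proteins (0.17). The smallest p did not always go with the largest difference. Over the 111 genes differences ran from -0.325 to 0.495, the highest among further calcium sensors, where no gene had an unadjusted p under 0.05 (limma). The median difference was -0.036 over 12 SNARE regulators, -0.028 over 23 endocytic genes and 0.0078 over 17 genes of the active zone and of priming.

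For the whole set of arrays, the median over all genes tested was 7.75 to 7.79, the correlation across genes between any pair of arrays was 0.987 to 0.992, and of 27 markers of hippocampal neurons 21 had a mean above 7.92, against 46.0% of all genes tested. Of the 8 arrays no pair held identical values, p-values cover the spread between these mice, and the number of arrays limits the precision of every value above.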

How the data were processed

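RNA from the hippocampus of each of 8 mice went onto a 1-colour Affymetrix array, from 1 ng of total RNA per the labels' protocols. The deposited values are log2 values that the authors made with RMA, per the submitters' processing notes. RMA as a method corrects background, normalizes by quantiles and compresses differences of dim genes. The version of RMA is not given in the sources used here. Probe sets were named from the platform table, 19572 with 1 symbol and 0 with several. The brightest probe set stood for a gene, and the 25% of genes with the lowest mean were left out (floor 5.33). Group differences were fitted over 14628 genes in R 4.3.3 by limma 3.58.1 (lmFit, eBayes, two-sided), with Benjamini-Hochberg adjustment and a threshold of 0.05, a procedure tested on simulated data. The labels call the mice biological replicates and give no batch.

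The 37 genes, the further lists and the marker lists were chosen with earlier results of these data known, and no set test was run. All 37 genes were named. Values of each mouse were given for the 12 with the smallest p, the 4 with the widest range and Snap25, Syt1, Syn1, Slc17a7 and Bsn, and those of Rimbp2 were added after its values were seen. Of the further lists, genes with an unadjusted p under 0.05 and the gene with the smallest p of each list were named. The fit on the thalamus score was added after seeing the data. Further markers of CA1, CA3, dentate, interneuron, astrocyte, oligodendrocyte, microglial, endothelial and meningeal cells served only as values, given as scores in the closing section. The interneuron score and Pvalb were also given beside the thalamus score. Markers of CA1, CA3, dentate and interneuron cells were also counted against the control percentile.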

Additional observations from a re-analysis of the deposited data

Results flagged for a closer look

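Within a group of 4 mice, a value was picked out where its gap to the nearest other mouse exceeded Dixon's critical share of the group's range. Of 74 such groups, 2 for each of the 37 genes, 3 were picked out, where chance gives about 1 in 20, or 3.7. Snap25 was 13.40 in intact mouse 4, while the other 3 intact mice lay between 13.47 and 13.48. Rims1 was 10.99 in intact mouse 2, with the other intact mice at 11.17 to 11.19. Unc13b was 7.54 in impaired mouse 3, with the other impaired mice at 7.94 or higher.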

How the results depend on the processing

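Under 21 alternatives, 20 of them planned and 1 added after seeing the data, none of the 37 genes passed an adjusted p of 0.05 (smallest 0.734, Doc2a without impaired mouse 4). By limma, with adjusted p of 0.734 to 0.999, an unadjusted p under 0.05 was found for Rims1 with an intensity trend and robust prior (unadjusted p = 0.0285), without impaired mouse 2 (0.0173) and without intact mouse 2 (0.0369), for Doc2a without impaired mouse 4 (0.0276), for Stx1a with both scores (0.0275) and without both mice numbered 3 (0.0285), and for Syt2 with both scores (0.00179). Of the recomputed values, 2 of 777 moved by more than the SD between mice. They were Snap25 after quantile normalization, at 0, and Syt2 with both scores, at -0.48. The Snap25 value of 0 was not counted as lower, and its cause was not tested. The sign held under every alternative for 11 of the genes besides Snap25, which was 0 after quantile normalization, and changed in some for 25, all with a difference that had not passed. The count of genes lower in the impaired mice was 17 after quantile normalization and with both scores as covariates, 15 without impaired mouse 3 and intact mouse 3 (the setting added after seeing the data, which leaves out the lowest and the highest mouse for these genes and so bears on no direction), and 20 to 28 when 1 mouse was left out. The count with groups that do not overlap was 0 to 2 with 1 mouse left out, against 4.25% to 7.24% of all genes, and 2 (Unc13b and Amph) without both mice numbered 3, against 9.43%. Of all genes, 1 passed with an intensity trend and robust prior and 1 with the general neuron score as covariate. The count of further vesicle cycle genes with an unadjusted p under 0.05 was 1 without a filter, 2 with the plexus score, 2 without both mice numbered 3, and 0 to 5 with 1 mouse left out; the cause of these shifts was not tested.

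The replicate numbers are shared between the groups, and the labels do not say whether they pair the mice. Deviations of same-numbered mice correlated at 0.028, 0.033, -0.048 and -0.10. Those of impaired and intact mice with unlike numbers correlated at -0.134 to 0.12. With so few mice these values cannot decide whether the numbers pair them. With the replicate block, 0 of the 37 genes and 0 of all genes passed, 26 of the 37 remained lower and Rims1 had the smallest p (0.124).

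Depth here is signal over background: Doc2a and Unc13b lay below the 95th percentile of the intron controls. Syt2 lay below that percentile of 7.92 in impaired mice 1 and 4 and intact mice 1 and 3. Of the further genes named, Ppfia4 (7.27 in impaired, 6.95 in intact) and Sh3gl3 (6.77 and 7.10) had both group means below it. For Cbln4 the intact mean of 7.76 was below it and the impaired mean of 7.93 was near it.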

Other observations

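Scores of other marker lists, computed like the thalamus score, ranged over the 8 mice from -0.39 to 0.35 for CA1, -0.25 to 0.23 for CA3, -0.17 to 0.21 for dentate granule cells, -0.16 to 0.12 for interneurons, -0.10 to 0.073 for astrocytes, -0.34 to 0.33 for oligodendrocytes, -0.22 to 0.24 for microglia, -0.14 to 0.16 for endothelial cells and -0.26 to 0.29 for meningeal fibroblasts. All 9 oligodendrocyte markers tested and all 13 choroid plexus markers tested had a lower mean in the impaired mice, with a mean difference of -0.153 and -0.441, 10 of the 13 plexus markers lay at or below the control percentile, and none of either list had an unadjusted p under 0.05 (limma). Their part in the presynaptic values was not tested beyond the covariate fits given for the plexus.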
